A study of Mus musculus with 18 samples.

Results

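Pyruvate dehydrogenase kinases and phosphatases were followed in mouse brown adipocytes whose lipolysis was switched by the presence of ABHD5, the co-activator of adipose triglyceride lipase. All 6 genes searched by symbol (the kinases Pdk1, Pdk2, Pdk3 and Pdk4 and the phosphatases Pdp1 and Pdp2) were among the 17672 genes of the count table. Pdk1 here is the pyruvate dehydrogenase kinase, not the unrelated 3-phosphoinositide-dependent kinase Pdpk1. All groups came from 1 immortalised brown preadipocyte line that stably carried an Abhd5 shRNA and a doxycycline (Dox)-inducible, shRNA-resistant, mCherry-tagged ABHD5 construct, differentiated with added indomethacin. Cells without Dox were labelled ABHD5 KD, and cells given 1 µg/ml Dox were labelled WT. Each was exposed for 3 h to DMSO, to isoproterenol (ISO, a β-adrenergic agonist; 10 nM) or to SR-3420 (20 µM), a synthetic ligand that activates lipolysis through ABHD5. The 6 groups held 3 libraries each, replicates that the study describes as independent experiments in this 1 line. Re-expression of ABHD5 and Dox itself cannot be told apart in the comparisons of Dox with no Dox.

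The pyruvate dehydrogenase complex commits pyruvate to acetyl-CoA in mitochondria. Its E1 component is switched off when a PDK phosphorylates it and on again when a PDP removes the phosphate, so the balance of kinases and phosphatases sets how much carbohydrate is oxidised. Pdk4 is known as the kinase gene induced by fasting, fatty acids and peroxisome proliferator-activated receptors (PPARs), Pdk1 as a target of hypoxia-inducible factor, Pdk2 as a widely expressed form, and Pdp1 as the calcium-sensitive phosphatase. These are transcript measurements, so enzyme amount, phosphorylation and flux were not measured.

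Libraries held between 689910 and 1956565 counts (median 1145729), and the 10 most abundant genes took 16.3% to 26.5% of them in 17 libraries but 35.6% in SR-3420 with Dox replicate 1, which stood apart. The lengths over which genes were counted lay within 10% of the annotated intron length for 66.5% of genes, whereas the methods name counting over whole genes, so how far the values reflect unspliced or mature RNA is not settled. Values are counts scaled to library size (CPM) after trimmed-mean (TMM) scaling, differences are log2 fold changes with their standard errors from edgeR, and a call means an adjusted p of 0.05 or less over 10178 tested genes. Of 8 adipocyte markers 6 were in the count table, and all 6 were tested. Plin1 (438 to 1746 CPM), Adipoq (299.7 to 717 CPM) and Lpl (837 to 1881 CPM) were abundant in every library. So were Pnpla2 (427 to 817 CPM) and Pparg (219 to 619 CPM), whereas Fabp4 ranged from 10 to 247 CPM. Of 9 brown markers 6 were tested, and of these Ppargc1a, Prdm16, Cidea, Ppara and Zic1 had counts in every library. Cox8b and Elovl3 had at most 5 and 8 counts and were at 0 in 6 and 10 libraries. Ucp1 was at 0 counts in 4 libraries but averaged 239 CPM with ISO and Dox, and Dio2 was at 0 in all 18. Of the macrophage, endothelial and muscle markers in the table, 1 of 7, 1 of 4 and 1 of 6 had enough counts to be tested, and each list summed to at most 25.7 CPM in any library. Abhd5, the targeted gene, averaged, in DMSO, 570 ± 85.5 CPM in the 3 cultures given Dox against 52.2 ± 4.68 CPM (SD, n = 3 each) in the others, which differ by 3.46 on the log2 scale (edgeR adjusted p 2.46e-14). Without Dox, ISO raised Abhd5 to 148 ± 21.8 CPM (SD, n = 3), a 2.84-fold rise over DMSO (edgeR adjusted p 3.34e-07), against 820.3 ± 28.2 CPM (SD, n = 3) with ISO and Dox. The Dox difference was thus smaller in ISO (2.48) than in DMSO. The interaction was -0.98 (edgeR adjusted p 0.0194) and passed in 18 of 22 alternatives. The contrast in Abhd5 counts therefore differed between the groups that enter the ISO interactions. Every group carried the shRNA, so the depth of the knockdown itself was not measured. The construct is a coding sequence, which counts over introns alone would miss, so the rise with Dox goes against a reading of the counts as intron reads only.

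Pdk4 was the member with the largest responses. It was 4.64-fold higher with ISO and 6.43-fold higher with SR-3420 when Dox was present. Neither response was called without Dox, although both passed under some alternatives. With Dox, ISO raised Pdk1 and Pdk2 by less and SR-3420 raised Pdk2 by less. Pdk3 and Pdp1 were called in none of the 11 comparisons, and Pdp2 had too few counts to be tested.

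Pdk4 (NM_013743) lies on the minus strand of chromosome 6 from 5433351 to 5446278 (mm9), of which 9475 bases were counted, and no annotated gene overlaps it. Without Dox its 3 libraries gave 103, 51.3 and 93.6 CPM in DMSO, 105, 78.7 and 159 CPM with ISO, and 163, 100.3 and 152 CPM with SR-3420. With Dox they gave 195, 93 and 143 CPM in DMSO, 797, 528 and 720 CPM with ISO, and 1130, 903 and 798 CPM with SR-3420. The 6 stimulated libraries with Dox all lay above the other 12, as for 1.9% of all tested genes. Over all tested genes, ISO and DMSO did not overlap with Dox, in the higher direction, for 21.3%, and SR-3420 and DMSO for 13.6%. Replicate 2 held the lowest value in 5 of the 6 groups.

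**Figure D1:**
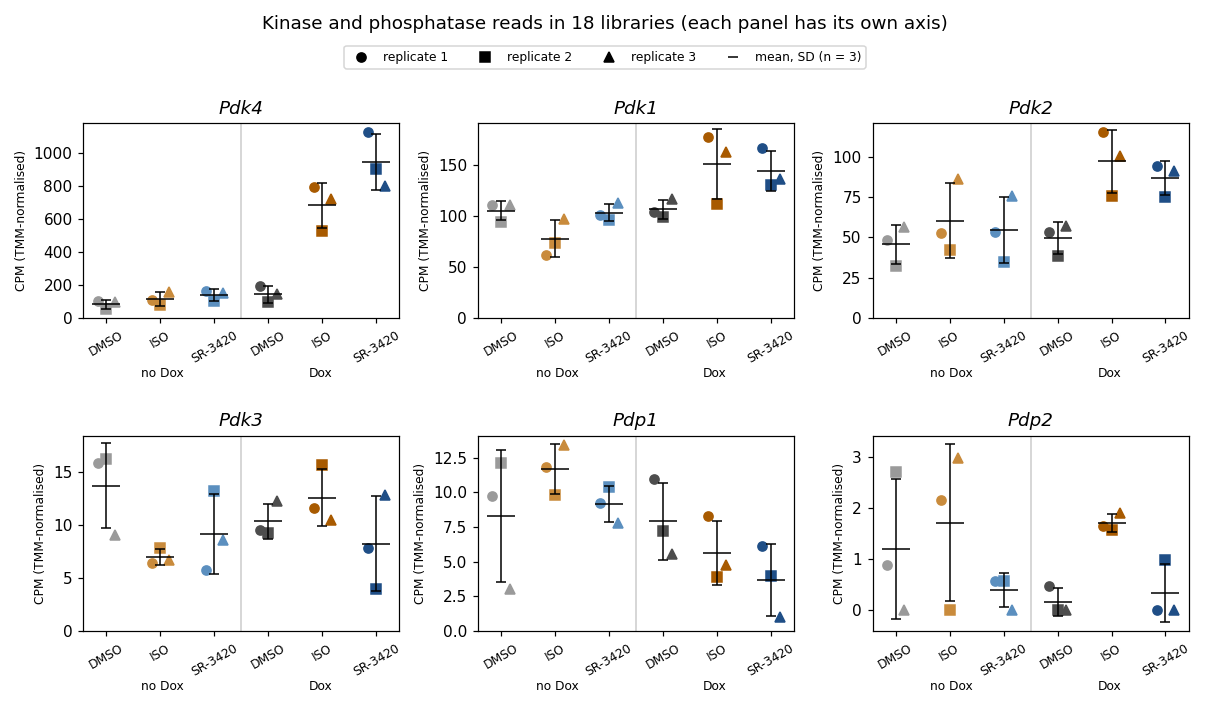
TMM-normalised CPM of each kinase and phosphatase gene (linear vertical axes that differ between panels) in 18 libraries, by stimulus on the horizontal axis and by Dox on either side of the line; symbols mark the replicate number and bars the group mean and SD (n = 3). Pdk4 reached 528 to 1130 CPM in the 6 stimulated libraries with Dox and stayed between 51.3 and 195 CPM in the other 12, while Pdp2 never passed 2.98 CPM.

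With Dox, ISO raised Pdk4 by 2.21 on the log2 scale (SE 0.24, edgeR adjusted p 3.06e-08) and SR-3420 by 2.68 (SE 0.24, edgeR adjusted p 9.89e-09). Only 12 of the 10178 genes had a higher fold change with SR-3420 than Pdk4, and 92 had a higher one with ISO. Without Dox the differences were 0.45 for ISO (95% interval -0.11 to 1.01, edgeR adjusted p 0.228) and 0.71 for SR-3420 (95% interval 0.17 to 1.25, edgeR adjusted p 0.345), so neither was called. Both passed when no filter on low counts was applied, at 0.47 and 0.74. With replicate number added to the fit as a block they passed at 0.48 and 0.73. The 6 adipocyte markers summed to 2440 to 2877 CPM in DMSO without Dox and 2884 to 3276 CPM with it, and to 4966 to 5146 CPM with ISO and Dox and 3717 to 4772 CPM with SR-3420 and Dox. Without Dox they summed to 3457 to 3713 CPM with ISO and 3480 to 3587 CPM with SR-3420. The brown markers summed to 591 to 1236 CPM with ISO and Dox, 205 to 411 CPM with SR-3420 and Dox and 133 to 168 CPM in DMSO with Dox. Without Dox they summed to 305 to 431 CPM with ISO, 116 to 188 CPM with SR-3420 and 101 to 151 CPM in DMSO. With ISO and Dox, Ppargc1a (mean 419 CPM) and Ucp1 (239 CPM) were the largest parts. Of the 6 tested, 5 were called higher with ISO and Dox, while Zic1 averaged 43.2 CPM against 41.2 CPM in DMSO with Dox. Of 7 preadipocyte markers 4 were tested (median -0.07 for ISO with Dox). With ISO and Dox, Col1a1 (-0.51) and Pdgfrb (-0.78) fell, while Pdgfra (0.36) and Ly6a (0.97) were not called. With ISO without Dox, Ly6a rose (3.29) and Pdgfrb fell (-1.20). That list summed to 434 to 634 CPM in DMSO with Dox and 293 to 399 CPM with ISO and Dox, and to 371 to 451 CPM and 309 to 333 CPM without Dox. The part of any of these lists in the Pdk4 result was not tested. Fewer adipocytes and less RNA per adipocyte cannot be told apart in such bulk libraries.

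Whether the response itself depended on Dox was tested with an interaction term. The ISO response of Pdk4 was larger with Dox by 1.76 on the log2 scale (SE 0.36, edgeR adjusted p 0.00617) and the SR-3420 response by 1.98 (SE 0.36, edgeR adjusted p 0.00637). In these comparisons 1.61% and 0.54% of all tested genes had a larger response with Dox. Both calls held in all 22 alternatives run for each, among them every fit that left out 1 library, with a highest adjusted p of 0.049 for ISO and 0.0442 for SR-3420.

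Between Dox and no Dox, Pdk4 was higher by 2.56 in ISO (SE 0.25, edgeR adjusted p 1.81e-08) and by 2.77 in SR-3420 (SE 0.24, edgeR adjusted p 4.76e-09). In DMSO the difference was 0.80 (95% interval 0.25 to 1.34, edgeR adjusted p 0.216) and the groups overlapped. It passed without a filter (0.81) and with replicate number as a block (0.80). It also passed without replicate 2 of every group (0.80), a setting chosen after seeing the data. Between the stimuli with Dox, ISO minus SR-3420 was -0.47 (95% interval -0.92 to -0.02, edgeR adjusted p 0.136) and was not called, although the highest ISO library at 797 CPM lay just below the lowest SR-3420 library at 798 CPM (groups apart in that direction for 17.4% of all genes). The difference between ISO and SR-3420 passed without a filter (-0.44) and with the block (-0.49). ISO and SR-3420 differ in target and dose, so the values are set side by side and say nothing of potency.

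Pdk1 (NM_172665, chromosome 2, 71711281 to 71741915, plus strand) moved within a narrower range. Without Dox it gave 111, 94.5 and 111 CPM in DMSO, 62.3, 73.8 and 97.6 CPM with ISO, and 101, 96.3 and 113 CPM with SR-3420. With Dox it gave 104, 99.2 and 117 CPM in DMSO, 178, 113 and 163 CPM with ISO, and 167, 130 and 137 CPM with SR-3420. The ISO libraries with Dox all lay above those without, as for 14.7% of all tested genes, but ISO and DMSO overlapped with Dox.

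The largest called difference in Pdk1 was between Dox and no Dox in ISO, at 0.93 (SE 0.17, edgeR adjusted p 0.000249), which passed in all 16 alternatives. Its other calls were 0.50 for ISO with Dox (SE 0.16, edgeR adjusted p 0.0189), 0.49 for Dox in SR-3420 (SE 0.16, edgeR adjusted p 0.0476) and 0.93 for the ISO interaction (SE 0.24, edgeR adjusted p 0.037). SR-3420 with Dox gave 0.44 (95% interval 0.11 to 0.78, edgeR adjusted p 0.0892), which was not called. The 3 weaker calls depended on single libraries and on the processing. The call for ISO with Dox was lost with library totals (0.37) or upper-quartile factors (0.39). It was further lost without DMSO with Dox replicate 1 (0.48) or 2 (0.46), or without ISO with Dox replicate 1 (0.35) or 3 (0.47). The call for Dox in SR-3420 passed in 6 of 16 alternatives. It was lost on omission of replicate 1 (0.37) or 3 (0.53) of the stimulated cells given Dox, or of replicate 1 (0.46), 2 (0.44) or 3 (0.55) of those not given it. It was also lost with library totals (0.26), upper-quartile factors (0.43), DESeq2 (0.49), limma-voom (0.48) and without replicate 2 of all groups (0.51). The ISO interaction passed in 13 of 22 and lost its call with upper-quartile factors (0.86) and without 8 of the 12 libraries it uses, each in turn: DMSO without Dox replicates 1 and 3 (both 0.89), ISO without Dox replicates 1 (0.80) and 2 (0.90), DMSO with Dox replicates 1 (0.91) and 2 (0.89), and ISO with Dox replicates 1 (0.78) and 3 (0.89). Without Dox, ISO minus DMSO was -0.43 (95% interval -0.79 to -0.06, edgeR adjusted p 0.0754) and passed in 4 of 16 alternatives, among them library totals (-0.60), upper-quartile factors (-0.47) and omission of ISO replicate 3 (-0.63). ISO minus SR-3420 without Dox was -0.39 (edgeR adjusted p 0.0909) and passed in 3 of 16, among them library totals (-0.51) and omission of ISO replicate 3 (-0.59).

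Pdk2 (NM_133667, chromosome 11, 94887572 to 94902685, minus strand) overlaps Gm11513 on the other strand, and since use of strand in counting is not stated, its counts are uncertain by that overlap. Without Dox it gave 48.6, 32.4 and 56.4 CPM in DMSO, 52.6, 42.3 and 86.4 CPM with ISO, and 53.6, 34.6 and 75.5 CPM with SR-3420. With Dox it gave 53.5, 38.2 and 56.9 CPM in DMSO, 115, 75.8 and 100.3 CPM with ISO, and 94.2, 75 and 91.2 CPM with SR-3420. With Dox both stimuli lay wholly above DMSO, as for 21.3% of all genes with ISO and 13.6% with SR-3420, and replicate 2 was lowest in all 6 groups.

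ISO raised Pdk2 with Dox by 0.95 (SE 0.24, edgeR adjusted p 0.00302), a call that held in all 16 alternatives. SR-3420 raised it by 0.80 (SE 0.25, edgeR adjusted p 0.0354), which was lost on omission of any DMSO library given Dox (0.88, 0.66 and 0.87 without replicates 1, 2 and 3) or of stimulated replicate 1 (0.73) or 3 (0.76), and with library totals (0.60) or upper-quartile factors (0.72). Neither interaction was called, at 0.55 for ISO (95% interval -0.19 to 1.29, edgeR adjusted p 0.526) and 0.60 for SR-3420 (95% interval -0.14 to 1.34, edgeR adjusted p 0.527). Dox minus no Dox in ISO was 0.65 (edgeR adjusted p 0.0725) and passed in 4 of 16 alternatives, among them no filter on low counts (0.66) and omission of ISO without Dox replicate 3 (1.05) or ISO with Dox replicate 2 (0.83). In SR-3420 it was 0.70 (edgeR adjusted p 0.0543) and passed in 6 of 16, among them no filter (0.67), limma-voom (0.77), a fit on these groups alone (0.68) and omission of replicate 3 of the cells without Dox (0.98) or replicate 2 of those given it (0.80).

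Pdk3 (NM_145630, chromosome X, 91009955 to 91077434, minus strand) had 4 to 23 counts per library although 65479 of its bases were counted. Its lowest group mean was 7.01 ± 0.762 CPM (SD, n = 3), with ISO without Dox, and its highest was 13.7 ± 4.04 CPM (SD, n = 3), in DMSO without Dox. These groups did not overlap, as for 19.8% of all genes in this direction, but the difference of -0.95 (95% interval -1.80 to -0.10, edgeR adjusted p 0.0889) was not called. It passed when scaled by library totals alone (-1.12, edgeR adjusted p 0.0462). The interval for SR-3420 with Dox, -1.15 to 0.53, leaves differences of either sign.

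Pdp1 (NM_001098230, chromosome 4, 11885332 to 11893597, minus strand) had 1 to 23 counts per library over 3869 counted bases. With ISO it gave 11.8, 9.84 and 13.4 CPM without Dox and 8.27, 3.91 and 4.78 CPM with Dox. With SR-3420 it gave 9.22, 10.4 and 7.79 CPM without Dox and 6.11, 3.95 and 0.991 CPM with Dox. In both stimuli the libraries with Dox all lay below those without. The differences were -1.05 in ISO (95% interval -1.97 to -0.12, edgeR adjusted p 0.136) and -1.26 in SR-3420 (95% interval -2.28 to -0.25, edgeR adjusted p 0.10), and neither was called. The latter passed when scaled by library totals alone (-1.51, edgeR adjusted p 0.0382). Over all tested genes, 13.6% in ISO and 14.1% in SR-3420 had groups that did not overlap in this direction.

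Pdp2 (NM_001024606, chromosome 8, 107115368 to 107120749, plus strand) had 0 to 4 counts per library, with 1884 bases counted. Its counts summed to 1 to 6 per group, and a count of 0 allows up to 3 counts, which is 1.53 to 4.35 CPM over these depths. A change in Pdp2 was not detectable at this depth.

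**Figure D2:**
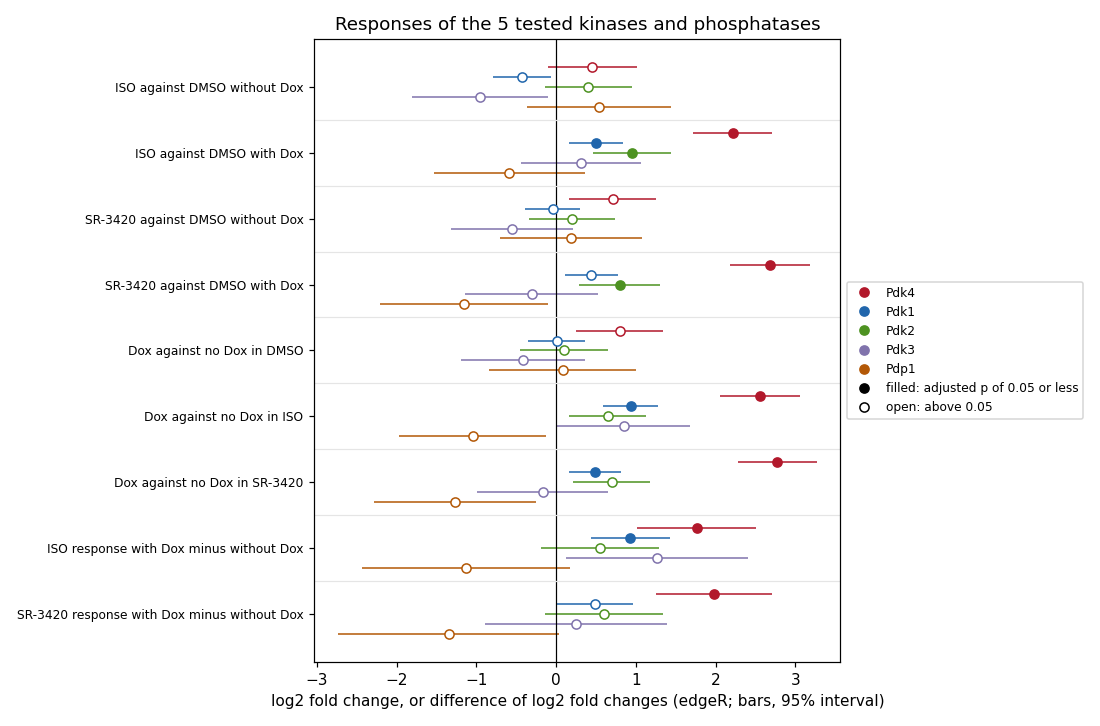
Log2 fold changes, or differences of log2 fold changes for the lower pair of rows, of the 5 tested members with 95% intervals from edgeR; filled points have an adjusted p of 0.05 or less. Pdk4 lies at 2.21 to 2.77 in the 4 comparisons of stimulated cells that involve Dox, Pdk1 and Pdk2 lie below 1, and the intervals of Pdk3 and Pdp1 are the widest.

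Counted over the 5 tested members, ISO with Dox raised 3 (16.4% of all tested genes rose) and SR-3420 with Dox raised 2 (6.53%). Dox raised 2 in ISO (7.89%) and 2 in SR-3420 (7.26%). None was called for ISO without Dox, where 28% of all genes changed in either direction, nor for SR-3420 without Dox (0.766%) or Dox in DMSO (1.18%). Between ISO and SR-3420, none differed without Dox (28.2% of all genes) or with it (19.8%) by this test. No member was called lower in any comparison. The 5 members share the libraries of each comparison and are too few for a share to be read closely.

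The responses were also tested against that of Pdk4, as the log2 ratio of each gene to Pdk4. With SR-3420 and Dox, the ratio to Pdk4 fell by 2.32 for Pdk1, by 1.95 for Pdk2, by 3.13 for Pdk3 and by 3.69 for Pdp1, with limma adjusted p of at most 1.18e-06. With ISO and Dox it fell by 1.80, 1.33, 2.04 and 2.67 in the same order, with limma adjusted p of at most 0.000833. These comparisons turn on the rise of Pdk4, since 99.8% and 97.3% of all other tested genes also fell against it. For the ISO interaction, where 89.7% fell, the ratio was lower for Pdk2 at -1.23 (limma adjusted p 0.0313) and Pdp1 at -2.77 (limma adjusted p 0.00177). It was not called for Pdk1 at -0.89 (95% interval -1.96 to 0.17, limma adjusted p 0.106), which passed without DMSO replicate 2 of the cells lacking Dox (-1.12) or DMSO replicate 1 of the others (-1.16), or for Pdk3 at -0.79 (95% interval -2.23 to 0.65, limma adjusted p 0.286). For the SR-3420 interaction, where 94.7% fell, all 4 were lower, from -1.40 for Pdk2 to -3.18 for Pdp1. The Pdk2 call for ISO was lost on omission of DMSO replicate 1 (-1.10) or ISO replicate 2 (-1.21) among cells without Dox, or of DMSO replicate 2 (-1.12) or 3 (-1.15) or ISO replicate 1 (-1.24) or 3 (-1.21) among those with it. For SR-3420, the Pdk2 call was lost without replicate 3 of the SR-3420 cells lacking Dox (-1.22). The Pdk3 call was lost without DMSO replicate 3 (-1.49) or SR-3420 replicate 2 (-1.38) of the cells lacking Dox, or SR-3420 replicate 2 of the others (-1.52).

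Levels were compared between genes per kilobase of counted length, with no test. In DMSO without Dox, Pdk4 stood at 8.73 ± 2.92 CPM per kb, Pdk1 at 4.87 ± 0.44, Pdk2 at 3.56 ± 0.952, Pdp1 at 2.14 ± 1.22, Pdp2 at 0.634 ± 0.731 and Pdk3 at 0.21 ± 0.0616 (SD, n = 3 each). Pdp2 and Pdk3, at the foot of this order, did not differ beyond their spread. With SR-3420 and Dox, Pdk4 stood at 99.6 ± 17.9 CPM per kb, while Pdk2 at 6.75 ± 0.804 and Pdk1 at 6.67 ± 0.895 did not differ beyond their spread (SD, n = 3 each).

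Pdk4 therefore made up a growing part of the kinase reads per kb. Its share was 49.4% ± 5.70 in DMSO without Dox, 58.6% ± 3.23 with ISO and 61.2% ± 3.97 with SR-3420 (SD, n = 3 each). With Dox it was 61.8% ± 6.79 in DMSO, 83.0% ± 0.105 with ISO and 87.9% ± 1.58 with SR-3420 (SD, n = 3 each). The 6 stimulated libraries with Dox ranged from 82.9% to 88.9%, and the highest of the other 12 was 69.3%. The summed kinases reached 113 ± 19.0 CPM per kb with SR-3420 and Dox against 24.1 ± 6.15 in DMSO with Dox (SD, n = 3 each). The summed phosphatases stood at 1.13 ± 0.754 against 2.13 ± 0.858 (SD, n = 3 each). Their ranges overlapped, at 0.256 to 1.58 against 1.44 to 3.09. With SR-3420 and Dox they rest on 12 counts of Pdp1 and 1 of Pdp2. These shares rest on the counted length, and since the counted bases are not settled they are not shares of mature mRNA or protein.

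**Figure D3:**
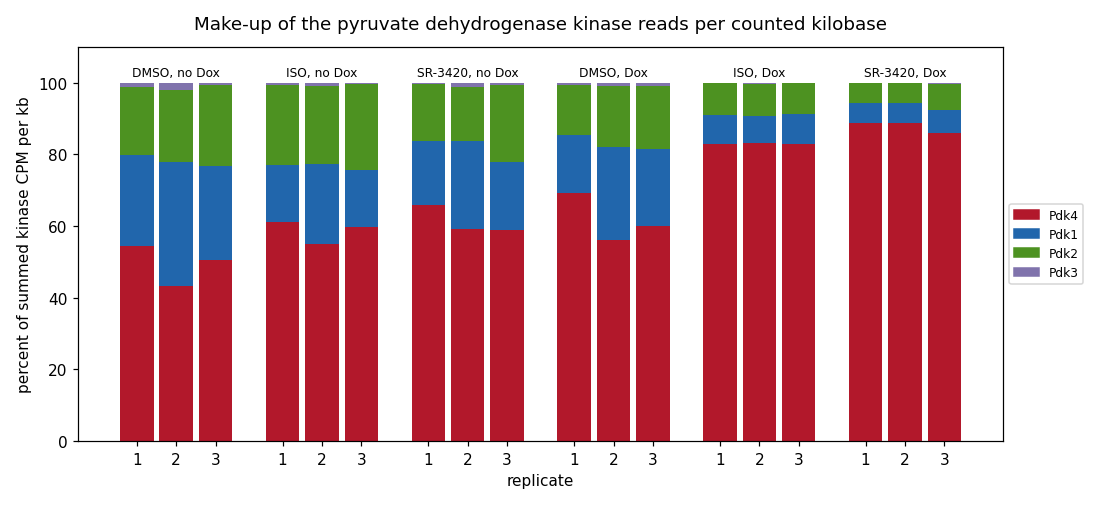
Percent of the summed CPM per counted kilobase of Pdk1, Pdk2, Pdk3 and Pdk4 in each of the 18 libraries, 1 bar per library, grouped by stimulus and Dox. The Pdk4 part spans 43.2% to 69.3% in 12 libraries and 82.9% to 88.9% in the 6 stimulated libraries with Dox.

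The sequences upstream of the 3 kinase genes that were called are shown because these genes rose in the same cells. RefSeq promoters (GRCm38.p6, a later build than that of the counts) matched 5 of the 6 genes, with 2 starts each for Pdk1 and Pdk2, of which the more upstream is printed. Each run gives the 250 bases before the start, 5′ to 3′ on the gene's strand, and capitals mark a match to CACGTG.
Pdk4, chr6:5496279-5496528, minus strand: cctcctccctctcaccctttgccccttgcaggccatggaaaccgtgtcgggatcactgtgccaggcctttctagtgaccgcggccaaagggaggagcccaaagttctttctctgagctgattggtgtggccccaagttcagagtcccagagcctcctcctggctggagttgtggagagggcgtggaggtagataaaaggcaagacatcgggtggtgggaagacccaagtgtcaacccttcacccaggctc
Pdk1, chr2:71872974-71873223, plus strand: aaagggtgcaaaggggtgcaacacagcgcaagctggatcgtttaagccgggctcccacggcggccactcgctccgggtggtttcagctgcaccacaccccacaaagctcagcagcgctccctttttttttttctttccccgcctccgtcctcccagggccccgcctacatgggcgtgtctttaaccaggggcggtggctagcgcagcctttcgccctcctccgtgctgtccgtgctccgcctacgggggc
Pdk2, chr11:95041372-95041621, minus strand: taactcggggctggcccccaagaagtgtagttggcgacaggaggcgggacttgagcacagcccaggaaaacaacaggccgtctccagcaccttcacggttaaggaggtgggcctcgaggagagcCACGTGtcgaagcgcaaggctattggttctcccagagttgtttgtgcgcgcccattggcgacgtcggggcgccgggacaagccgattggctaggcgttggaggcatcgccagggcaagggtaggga
Searched on both strands were a PPAR element (paired half-sites 1 base apart, with 1 mismatch allowed in each), its half-site AGGTCA, the estrogen-related receptor site TCAAGGTCA, the cAMP response element TGACGTCA and its half-site TGACG, the FOXO site GTAAACA, the glucocorticoid element by name, the E-box CACGTG and the hypoxia core ACGTG. The shorter site of each kind lies within the longer. None of these occurred in the printed Pdk4 and Pdk1 windows. The Pdk2 window held CACGTG, 126 bases before the start, which 6.02% of 32851 promoters hold. The PPAR element as spelled here was in 1.98% of them, and its absence from these windows says only that the letters are not there.

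The pyruvate dehydrogenase complex itself was examined next, with 6 genes for its subunits and the phosphatase regulatory subunit Pdpr. ISO with Dox raised 4 of 6 (16.4% of all tested genes), with a median of 0.65 against -0.02 over all tested genes, and SR-3420 with Dox raised 1 (6.53% of all genes, median 0.13 against -0.01). ISO without Dox raised 3 of 6 (14.5% of all genes, median 0.37 against -0.01), namely Dld (0.67), Pdhx (0.67) and Pdha1 (0.42), which also rose with Dox (0.87, 0.93 and 0.48). Dlat, which encodes the E2 core to which the kinases bind, was the subunit raised by SR-3420 with Dox. Pdpr was not called in any comparison, and it overlaps a gene on the other strand.

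Dlat gave 126, 99.9 and 116 CPM in DMSO without Dox, 112, 97.4 and 135 CPM with ISO, and 146, 109.5 and 132 CPM with SR-3420. With Dox it gave 128, 97.1 and 113 CPM in DMSO, 214, 184 and 205 CPM with ISO, and 195, 201 and 187 CPM with SR-3420. The 6 stimulated libraries with Dox lay above the other 12, again as for 1.9% of all tested genes. The differences were 0.82 for ISO with Dox (SE 0.14, edgeR adjusted p 6.17e-05) and 0.77 for SR-3420 with Dox (SE 0.15, edgeR adjusted p 0.000537), and 0.01 and 0.17 without Dox, where neither was called. The ISO interaction was 0.81 (SE 0.21, edgeR adjusted p 0.0357) and the SR-3420 interaction 0.60 (edgeR adjusted p 0.19). The former was lost in 11 of 22 alternatives, with values of 0.72 to 0.97 over all of them. Among these were the fits without replicate 1 or 3 of DMSO, or 1 or 2 of ISO, in cells lacking Dox, and without replicate 2 or 3 of DMSO, or 1 or 3 of ISO, in cells given it.

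Dlat was also the gene whose pattern was most like that of Pdk4, at Pearson r = 0.96 of log2 CPM over the 18 libraries and Spearman rho = 0.92. This is a description over libraries that share 6 groups, and after removal of the group means r was 0.94. Replicate 2 was the lowest in 5 of 6 groups for both genes, which enters that value. The next genes were Irf2bp2 (r = 0.96), Tmem140 (0.95), 4931406C07Rik (0.94), Dlc1 (0.93), Plekhm2 (0.93), Grhl1 (0.93) and Dhrs9 (0.93), and their r after removal of the group means was 0.10 to 0.43. By Spearman rho, and by Pearson r over the 6 group means, only 1 of the 8 remained among the first 8. Among the members, Pdk2 (r = 0.85) and Pdk1 (r = 0.79) ran with Pdk4, Pdk3 had r = -0.15 and Pdp1 r = -0.57. After removal of the group means, r with Pdk4 was 0.84 for Pdk2, 0.65 for Pdk1, 0.17 for Pdp1 and -0.39 for Pdk3. Beyond the members it was 0.94 for Angptl4, 0.74 for Ppara, -0.36 for Abhd5 and -0.53 for Plin2. A high value was thus not particular to Dlat. The genes most like Pdk1 were Ube2b (0.92), Bnip3 (0.92) and Etfa (0.89). Those most like Pdk2 were Acadvl (0.94), Atg2a (0.93) and Hadhb (0.92), of which Acadvl and Hadhb encode enzymes of fatty acid β-oxidation. Pdk3 was most like Ap3b1 (0.82), 2900092C05Rik (0.80) and Ptpla (0.73), and Pdp1 like Zfp217 (0.87), Heatr2 (0.83) and Mta2 (0.82).

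**Figure D4:**
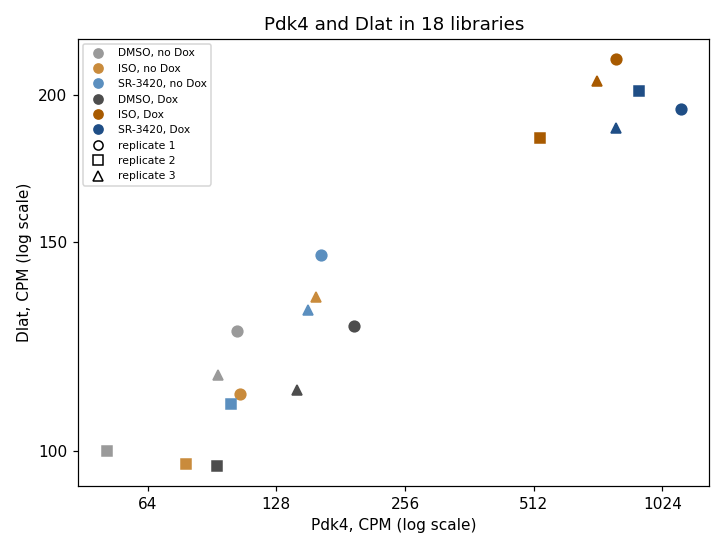
CPM of Dlat (vertical, log scale) against CPM of Pdk4 (horizontal, log scale) in 18 libraries, coloured by group and shaped by replicate number. The 6 stimulated libraries with Dox lie at the upper right, at 184 to 214 CPM for Dlat, and the other 12 at 97.1 to 146 CPM.

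Genes that supply pyruvate or take it elsewhere were followed with a list of 15, of which 11 were tested. ISO raised 4 without Dox, where 14.5% of all tested genes rose. With Dox it raised 7 and lowered 1, where 16.4% of all genes rose and 16.1% fell (median 0.58 against -0.02 over all genes). SR-3420 with Dox raised 2 (6.53% of all genes, median -0.05 against -0.01). Slc16a1, the monocarboxylate transporter, rose with ISO by 1.91 in cells given Dox and 2.19 in the others, and with SR-3420 and Dox by 1.07. Ldha, the lactate dehydrogenase subunit A gene, rose with ISO by 0.68 in the absence of Dox and 1.00 in its presence. Mpc1, a subunit of the mitochondrial pyruvate carrier, rose by 1.25 with ISO and Dox, and Pcx, which carboxylates pyruvate to oxaloacetate, by 0.53 with SR-3420 and Dox. In the related branched-chain ketoacid system, the kinase gene Bckdk was not called in any comparison, and Bckdhb, an E1 subunit, fell with ISO without Dox (-0.66, edgeR adjusted p 0.00447) and was not called with Dox (0.38, edgeR adjusted p 0.0627). The difference between these was 1.04 (SE 0.23, edgeR adjusted p 0.0119), a call lost without DMSO with Dox replicate 1 (0.89).

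Of 15 tested genes known to regulate Pdk4 transcription, ISO without Dox raised 5 and lowered 1, against 14.5% and 13.5% of all genes (median 0.53 against -0.01), and neither interaction was called for any of them. ISO with Dox raised 7 and lowered 2, against 16.4% and 16.1% of all genes (median 0.62 against -0.02). SR-3420 with Dox raised 4 and lowered 1, against 6.53% and 3.37% of all genes (median 0.33 against -0.01). Thra, a thyroid hormone receptor, fell with ISO by 1.52 in the absence of Dox and by 1.71 in its presence, and fell by 0.98 with SR-3420 and Dox. Ppara, the fatty-acid-sensing receptor, rose by 2.10 with ISO and 2.72 with SR-3420 with Dox, and between Dox and no Dox by 2.45 in ISO. Its interactions were not called (edgeR adjusted p 0.114 for ISO and 0.418 for SR-3420). The coactivator Ppargc1a rose with ISO both without Dox (2.20) and with Dox (3.28). Its ISO interaction was 1.09 (edgeR adjusted p 0.234), which was not called. Ppargc1b rose by 1.98 with SR-3420 in cells with Dox. Of 15 tested PPAR targets besides Pdk4, ISO raised 4 and lowered 3 without Dox (14.5% and 13.5% of all genes), and raised 9 and lowered 1 with Dox (16.4% and 16.1%). Ehhadh, an enzyme of peroxisomal β-oxidation, fell by 1.93 with ISO without Dox. In the same list SR-3420 raised 3 without Dox (0.698% of all genes, median 0.74 against -0.00) and 10 with Dox (6.53% of all genes, median 0.77 against -0.01). Acsl1, which activates fatty acids, rose with SR-3420 by 1.36 in the absence of Dox and 1.73 in its presence. Its response to ISO was larger with Dox by 1.63 (SE 0.24, edgeR adjusted p 0.00017). The ISO interaction was called higher for 5 of the 15 (1.61% of all genes) and the SR-3420 interaction for none (0.54%). The ratio test against Pdk4 covered all other tested genes, but its results for these targets are not given here.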

How the data were processed

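Total RNA from 18 cultures in 6 groups was sequenced. The authors deposited raw counts, as whole numbers for each gene. The authors aligned reads to mm9 with STAR 2.4.2a, used HOMER with 1 read kept per position and length, and counted reads with iRNA-seq set to whole genes. Counted lengths lay within 10% of the annotated intron length for 66.5% of 16389 matched genes and of the exon length for 2.48%, although whole-gene counting is named and Abhd5 rose with a coding-sequence construct, so which bases were counted is not settled. Use of strand is not given in the sources used here. Filtering (filterByExpr), TMM scaling (factors 0.769 to 1.13) and quasi-likelihood tests were run in R 4.3.3 (edgeR 4.0.16) on all 18 libraries, each group having its own mean, with Benjamini-Hochberg adjustment over 10178 genes (7494 were not tested). Ratios to Pdk4 used limma 3.58.1 on log2 CPM (prior count 2). DESeq2 1.42.0 was an alternative. The tests were tested on simulated data with known changes. No 2 replicates agreed within sampling noise. P-values measure the spread between cultures of 1 line, and intervals and floors for single counts cover counting error only.

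The members and gene lists were chosen with earlier results of these data known. Named genes were the 6 members, Abhd5, list genes called in a comparison (at most 4 per list), the 8 genes most like Pdk4 and the 3 most like each other tested member, and genes that overlap a member. Bases in the count table are mm9 and promoters GRCm38.p6, and no coordinate was converted.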

Additional observations from a re-analysis of the deposited data

Results flagged for a closer look

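The responses of Pdk4 and Pdk1 differed between cells with and without Dox by the test of the interaction itself (edgeR). For Pdk4 the ISO response was larger with Dox by 1.76 and the SR-3420 response by 1.98 on the log2 scale. For Pdk1 the ISO response was larger with Dox by 0.93. Its ISO libraries lay at 62.3 to 97.6 CPM without Dox and at 113 to 178 CPM with it. The Pdk1 call was lost on omission of most of the single libraries that it uses. Groups of 3 libraries were not tested for single outlying libraries.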

How the results depend on the processing

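The called Pdk4 responses held under all alternatives. Pdk4 gained calls with no filter on low counts, at 0.47 for ISO and 0.74 for SR-3420 without Dox, 0.81 for Dox in DMSO and -0.44 for ISO minus SR-3420 with Dox, and with the replicate block, at 0.48, 0.73, 0.80 and -0.49 in the same order. Dox in DMSO also passed at 0.80 without replicate 2 of all groups, chosen after seeing the data. With 1 library left out, Pdk4 without Dox ranged from 0.13 to 0.66 for ISO and 0.49 to 0.90 for SR-3420. It ranged from 0.48 to 1.02 for Dox in DMSO and -0.60 to -0.29 for ISO minus SR-3420 with Dox. Over all genes, those called higher then numbered 82 to 235 for the ISO interaction (164 with all libraries) and 21 to 54 for the SR-3420 interaction (55). Against Pdk4, the ISO interaction of Pdk1 passed with the replicate block (-0.89) and without either of 2 libraries, and ranged from -1.16 to -0.67 when 1 library was left out. Likewise Pdk2 ranged from -1.42 to -1.10 for ISO and -1.59 to -1.22 for SR-3420, and Pdk3 from -2.29 to -1.38 for SR-3420, some below the threshold. The cause was not tested.

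Replicate numbers were not taken as pairs, since same-numbered libraries had r of 0.0386 to 0.277 over 45 pairs, of which 36 were over 0.1, so that not every pair was. Those of different number had r of -0.209 to 0.0867 over 90 pairs, 0 of them over 0.1, and 14 of 18 libraries were closest to those of their own number. Every r between same-numbered libraries was positive, which is structure by number that the unblocked fits leave out. The labels do not say what a shared number marks. The block also called Pdk1 for ISO (-0.42) and ISO minus SR-3420 (-0.39) without Dox and SR-3420 with Dox (0.45), and Pdk2 for Dox in ISO (0.68) and in SR-3420 (0.71). It raised calls from 120 to 270 for Dox in DMSO, 78 to 238 for SR-3420 without Dox, 1008 to 1568 for SR-3420 with Dox, 1175 to 1834 for Dox in SR-3420, 222 to 600 for the ISO interaction and 77 to 339 for the SR-3420 interaction. With library totals alone the median of all genes was -0.22, against -0.00014, for Dox in SR-3420 (334 higher and 1147 lower, against 739 and 436), -0.21, against -0.01, for SR-3420 with Dox (327 and 699, against 665 and 343), -0.18, against -0.01, for ISO without Dox (845 and 1928, against 1474 and 1374) and -0.15, against -0.02, for ISO with Dox (1119 and 2073, against 1669 and 1640).

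Values that changed sign were all uncalled. For Dox in DMSO, Pdk1 was -0.00088 with RLE factors, -0.084 with library totals and -0.019 without replicate 2 of all groups, and with 1 library left out it ranged from -0.060 to 0.049, Pdk2 from -0.065 to 0.26 and Pdp1 from -0.33 to 0.38. For SR-3420 without Dox the ranges were -0.10 to 0.012 for Pdk1, -0.081 to 0.45 for Pdk2 and -0.22 to 0.49 for Pdp1. Pdk3 ranged from -0.75 to 0.016 for SR-3420 with Dox, -0.61 to 0.22 for Dox in SR-3420 (0.54 without replicate 2 of all groups) and -0.20 to 0.64 for the SR-3420 interaction. ISO minus SR-3420 ranged from -0.17 to 0.49 for Pdk2 without Dox and -0.080 to 0.26 for Pdk1 with it. Low counts limit Pdk3, Pdp1 and Pdp2.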
